A study of Mus musculus with 16 samples.

Results

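Expression of 10 genes that make, conjugate, move and sense bile acids was examined in cultured mouse hepatocytes. The genes were found by symbol among the 55450 genes of the count table: *Cyp7a1*, *Cyp7b1*, *Cyp8b1*, *Cyp27a1*, *Baat*, *Slc10a1*, *Abcb11*, *Abcb4*, *Nr1h4* and *Nr0b2*. The table holds 16 bulk RNA-seq libraries of primary hepatocytes from livers of wild-type mice, which the study describes as male C57BL/6J adults. Cells were kept overnight in medium with serum and insulin-transferrin-selenium and were untreated, given 10 mM sodium itaconate, given a defined lipid mixture diluted 10-fold, or given both. The undiluted mixture contained cholesterol (0.22 mg/mL), arachidonic acid (2 ug/mL) and 5 other fatty acids (10 ug/mL each). Each of the 4 groups had 4 libraries, named by the replicate letters A to D, and the labels do not say whether a letter marks an animal, an isolation or a day. The p-values below therefore measure the spread between these libraries that is left once treatment and replicate letter are fitted. They describe cells in culture, outside the bile flow of the intact liver.

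Bile acids are made from cholesterol in hepatocytes. The classical route starts with CYP7A1, its rate-limiting enzyme, and CYP8B1 then directs the product towards cholic acid. An alternative route starts with CYP27A1 in mitochondria and continues with CYP7B1. BAAT joins bile acids to taurine or glycine. SLC10A1 takes conjugated bile acids up from blood, ABCB11 pumps them into the bile canaliculus, and ABCB4 moves phosphatidylcholine into bile beside them. Bile acids activate FXR, the nuclear receptor encoded by *Nr1h4*, which induces *Nr0b2* (SHP), a repressor of *Cyp7a1* and *Cyp8b1*.

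Libraries held 22346049 to 35512004 expected counts, and the median correlation of a library with the others of its group was 0.984 to 0.991. Levels are given as CPM, counts scaled to a common library size with edgeR's TMM factors. The 11675 genes that averaged 1 CPM or more entered the tests, and 9 of the 10 genes were among them. *Cyp7a1* fell under the filter with 1 to 11 counts per library. Changes are log2 fold changes from an edgeR quasi-likelihood model of all 16 libraries with treatment and replicate letter as terms. "Adjusted p" is the Benjamini-Hochberg value over all genes tested, and a gene was called at an adjusted p under 0.05. Of the 12 hepatocyte markers listed, 11 were in the table and their summed level was 35729 to 62246 CPM, against 0.609 to 2.07 CPM for 8 stellate cell and fibroblast markers. Summed macrophage markers reached 461 to 682 CPM, mostly *Cd68* and *Cd14*, and cholangiocyte markers 357 to 1210 CPM, mostly *Spp1*. The cholangiocyte-defining *Krt19* (at most 0.548 CPM), *Krt7* (at most 0.0385 CPM) and *Epcam* (at most 0.580 CPM) were near 0 and *Cftr* was at 0.

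Upstream sequence from RefSeq (build GRCm38.p6) was matched by symbol for 7 of the 10 genes, with 2 start sites for *Slc10a1*. *Cyp7a1*, *Cyp7b1* and *Baat* had no entry. The 250 bases before the start are shown 5′ to 3′ on the gene's strand for *Cyp8b1*, which had the largest lipid changes of the 9 genes tested, for *Abcb11* and *Nr0b2*, known targets of FXR, and for the FXR gene *Nr1h4* itself. They lie at chr9:121916306-121916555 (minus strand) for *Cyp8b1*, chr2:69342617-69342866 (minus) for *Abcb11*, chr10:89506659-89506908 (minus) for *Nr1h4* and chr4:133553126-133553375 (plus) for *Nr0b2*. The *Nr1h4* window is inside the span of the gene in GENCODE, which begins further upstream. Capitals mark matches, on either strand, to CAAAGTCCA in *Cyp8b1*, to AGGTCA in *Abcb11* and *Nr1h4*, and to TCAAGG in *Nr0b2*.
Cyp8b1: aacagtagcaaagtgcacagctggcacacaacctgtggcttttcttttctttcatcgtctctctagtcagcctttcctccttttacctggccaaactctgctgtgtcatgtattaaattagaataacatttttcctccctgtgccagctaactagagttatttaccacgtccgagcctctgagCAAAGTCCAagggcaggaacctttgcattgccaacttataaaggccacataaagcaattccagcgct
Abcb11: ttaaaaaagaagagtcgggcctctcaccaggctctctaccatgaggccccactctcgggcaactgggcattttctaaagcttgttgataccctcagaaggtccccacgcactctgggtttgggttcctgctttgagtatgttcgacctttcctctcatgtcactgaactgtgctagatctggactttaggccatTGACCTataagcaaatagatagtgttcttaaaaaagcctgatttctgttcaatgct
Nr1h4: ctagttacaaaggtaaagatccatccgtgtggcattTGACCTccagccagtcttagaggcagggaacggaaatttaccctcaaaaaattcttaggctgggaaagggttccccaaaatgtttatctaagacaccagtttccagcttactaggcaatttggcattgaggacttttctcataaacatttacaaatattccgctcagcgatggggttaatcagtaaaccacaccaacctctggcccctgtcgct
Nr0b2: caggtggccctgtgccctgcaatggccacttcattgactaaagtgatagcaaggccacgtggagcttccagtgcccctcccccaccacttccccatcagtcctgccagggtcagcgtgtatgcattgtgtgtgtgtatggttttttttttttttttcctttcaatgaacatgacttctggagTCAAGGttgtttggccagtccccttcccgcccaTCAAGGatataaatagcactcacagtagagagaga

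The letters searched were chosen after these windows had been read. CAAAGTCCA, an element of the kind bound by the hepatocyte factor HNF4A, was found 67 bases before the *Cyp8b1* start and in 0.384% of 32851 windows of the same length. AGGTCA, the core to which many nuclear receptors bind, was found 56 bases before the *Abcb11* start, 214 before that of *Nr1h4* and 87 before one start of *Slc10a1*, and in 14.0% of all windows. TCAAGG, the core bound by the liver receptor NR5A2, occurred at 68 and 35 bases before the *Nr0b2* start and in 12.5% of all windows. Exact copies of the inverted repeat that FXR binds (AGGTCA, 1 base of any kind, then its reverse complement) occurred in 0.00609% of windows. They occurred in 0 of the 8 windows of these genes. Inexact copies were not searched. In the *Abcb11* window the letters aggccatTGACCT, which end in the marked match, differ from this repeat by 1 base. A match describes the letters and is not evidence of binding.

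The genes covered a wide range of levels. Per kb of exon, so that genes can be set beside each other, untreated hepatocytes had 93.5 ± 4.30 CPM per kb of *Cyp27a1* (SD, n = 4) and 42.9 ± 3.92 CPM per kb of *Cyp7b1*. *Slc10a1* (17.7 ± 3.74) and *Abcb11* (14.5 ± 0.591) came next and overlapped between libraries, followed by *Abcb4* (8.54 ± 0.815). *Baat* (5.21 ± 0.882), *Cyp8b1* (4.63 ± 0.557) and *Nr1h4* (4.48 ± 1.14) were neighbours in this order and overlapped in range. *Nr0b2* was lower (1.00 ± 0.179) and *Cyp7a1* lowest (0.0866 ± 0.0270). Both enzymes of the alternative route were thus the highest of the 10, and the first enzyme of the classical route was the lowest. The order of the groups of genes was alike under all treatments but for *Cyp8b1*. It was eighth with itaconate (4.46 ± 0.782 CPM per kb), sixth with lipid (7.16 ± 1.84) and sixth with lipid + itaconate (8.96 ± 2.29), where it no longer overlapped with *Baat* (4.53 ± 1.76) and overlapped with *Abcb4* (10.0 ± 1.21).

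**Figure D1:**
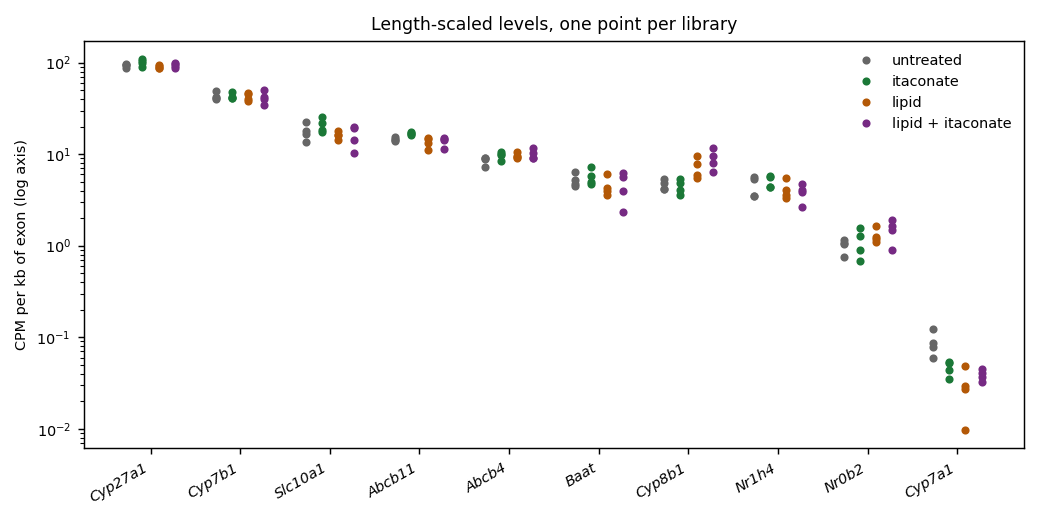
Level of each gene in CPM per kb of exon (log axis), 1 point per library, coloured by treatment, with genes ordered by their mean in untreated hepatocytes. *Cyp27a1* (about 93.5 CPM per kb untreated) is highest and *Cyp7a1* (0.0866) lowest, and *Cyp8b1* is the gene whose place rises with lipid.

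With lipid, *Cyp8b1* rose in cells with and without itaconate. It was the 1 gene of the 9 called in lipid against untreated hepatocytes, while 47.5% of all genes tested were called there (23.8% higher, 23.7% lower). In lipid + itaconate against itaconate hepatocytes 5 of the 9 were called, with *Cyp8b1* higher and *Slc10a1*, *Nr1h4*, *Abcb11* and *Baat* lower, beside 47.0% of all genes (23.5% higher, 23.5% lower). The share of called genes was thus under the background in the first comparison and near it in the second. Over the 9 genes the log2 fold changes had a median of −0.05 and −0.10, and over all genes tested one of 0.0047 and 0.0041. These percentages depend on scaling for their direction. With upper-quartile scaling 3666 of 5773 called genes were higher in lipid against untreated hepatocytes, against 2779 of 5546 here, and 3755 of 5667 against 2740 of 5483 in the other comparison.

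With itaconate alone none of the 9 genes passed the threshold in this model. Of the 9 genes 0 were called in itaconate against untreated hepatocytes in the edgeR test, beside 4.91% of all genes, and 3 (*Slc10a1*, *Abcb11* and *Abcb4*, all higher) had an unadjusted p under 0.05, which 21.3% of all genes had. By DESeq2 the count was 0, but without a filter on low genes it was 3, and in a model of only the 8 libraries compared it was 4. Added to lipid, itaconate was associated with a higher level of *Cyp8b1* alone among the 9, beside 2.58% of all genes called (1.32% higher). This call had an adjusted p of 0.0459 by edgeR and was lost in 19 of 24 alternative settings. The difference between the lipid effects with and without itaconate was called for 0 of the 9 by edgeR and for 0 of the 8 with an adjusted p by DESeq2 (0.00857% of all genes by edgeR), and it had an unadjusted p under 0.05 for *Cyp8b1* and *Slc10a1*. Each group of libraries enters 2 of the 4 comparisons, which are therefore not independent.

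**Figure D2:**
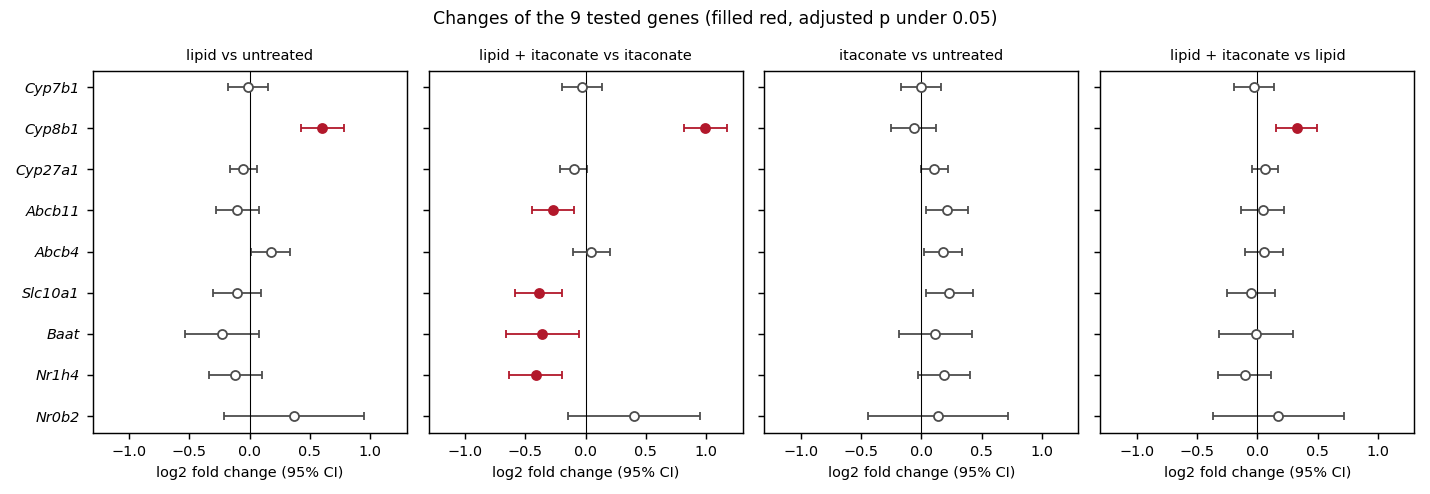
Log2 fold change (x axis) with its 95% CI for the 9 tested genes in 4 comparisons, with genes called at an adjusted p under 0.05 in filled red. *Cyp8b1* lies at 0.60 and 0.99 in the lipid comparisons and at −0.06 with itaconate alone, and the 4 genes called lower all belong to lipid + itaconate against itaconate hepatocytes.

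*Cyp8b1* (ENSMUSG00000050445.4, minus strand of chr9:121914356-121916305) had 10.4, 9.40, 8.18 and 8.13 CPM in untreated libraries A to D. With lipid it had 18.4, 15.3, 10.6 and 11.6 CPM. All 4 lipid libraries were above all 4 untreated ones, as for 16.6% of all genes (higher, no overlap). The fold change was 1.52 (95% CI 1.34 to 1.72), a log2 change of 0.60 (SE 0.0849, adjusted p = 3.79e-05). In bulk RNA a change in the number of expressing cells and a change in RNA per cell cannot be told apart. Itaconate libraries had 10.4, 9.46, 7.00 and 7.93 CPM, which overlapped with the untreated ones, and the log2 change was −0.06 (95% CI −0.25 to 0.12, adjusted p = 0.706). The lipid + itaconate libraries had 23.1, 18.6, 12.6 and 15.7 CPM, all above every itaconate library (16.6% of all genes were higher with no overlap here), with a log2 change of 0.99 (SE 0.0833, adjusted p = 4.37e-07), or 1.99-fold (95% CI 1.76 to 2.25). In size this exceeded the change of 97.8% of genes tested, and that in lipid against untreated hepatocytes exceeded 90.4%.

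The rise was present in every letter. The log2 difference in CPM between lipid and untreated hepatocytes was 0.82 (A), 0.70 (B), 0.37 (C) and 0.51 (D), and between lipid + itaconate and itaconate hepatocytes it was 1.15, 0.97, 0.84 and 0.99. *Cyp8b1* was higher with lipid + itaconate than with lipid in 4 of 4 letters (0.32, 0.28, 0.25 and 0.44), although the ranges of both groups overlapped. The fitted log2 change was 0.32 (SE 0.0812, adjusted p = 0.0459), but it was not called in 19 of 24 alternative settings, among them a model without the letters (0.595) and the omission of most single libraries. The difference between both lipid effects was 0.39 (95% CI 0.14 to 0.64, unadjusted p = 0.00490, adjusted p = 0.357), positive in 4 of 4 letters. The 2 lipid effects themselves were called in all 24 settings.

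**Figure D3:**
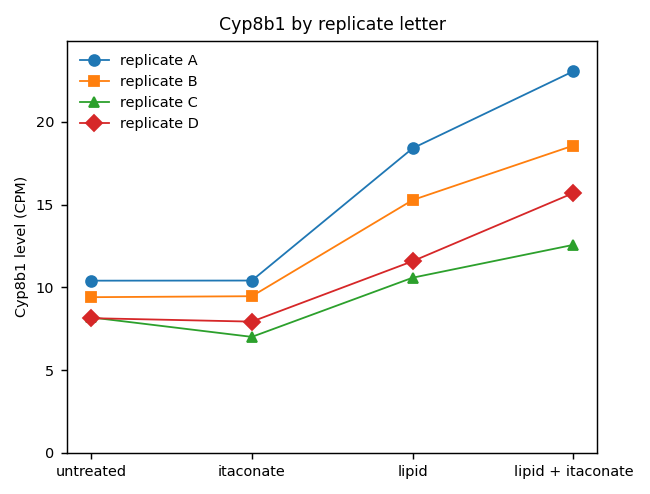
*Cyp8b1* level in CPM (y axis, from 0) in each treatment, with a line for each replicate letter. Every letter is higher with lipid than untreated and highest with lipid + itaconate, and letter A spans 10.4 to 23.1 CPM.

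*Cyp7a1* (ENSMUSG00000028240.2, minus strand of chr4:6265612-6275633) was close to the limit of detection. Its counts were 11, 7, 9 and 10 in untreated libraries A to D, 6, 5, 6 and 5 with itaconate, 1, 3, 3 and 6 with lipid, and 6, 4, 4 and 5 with both. Each untreated library was above every treated one, but by a small gap (lowest untreated 0.246 CPM, highest with itaconate 0.226 CPM). The share of all genes that separate in this way is not given here. Of the 4 lipid libraries, 3 were at or under 3 counts (0.0854 to 0.141 CPM by library). The pooled ratio of lipid to untreated was 0.351 (13 against 37 counts, interval 0.171 to 0.675), and that of itaconate to untreated 0.540 (22 against 37 counts, interval 0.303 to 0.940). These intervals cover counting error only. In the model without a filter the log2 changes were −1.51 (SE 0.714, adjusted p = 0.110) and −0.86 (SE 0.654, adjusted p = 0.734), so that neither passed the threshold. In lipid + itaconate against itaconate hepatocytes the ratio was 0.853 (19 against 22 counts, interval 0.437 to 1.65).

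The alternative route showed little movement. *Cyp27a1* (ENSMUSG00000026170.6, plus strand of chr1:74713574-74737892) had 207, 189, 210 and 206 CPM untreated, 217, 196, 237 and 227 with itaconate, 191, 190, 199 and 203 with lipid, and 201, 215, 192 and 209 with both. Its largest fitted log2 change was 0.11 with itaconate alone (95% CI −0.0032 to 0.22, adjusted p = 0.249). *Cyp7b1* (ENSMUSG00000039519.6, minus strand of chr3:18071950-18243338) had 89.3, 85.9, 105 and 91.5 CPM untreated, 89.1, 88.1, 103 and 90.3 with itaconate, 87.6, 100.4, 98.0 and 82.8 with lipid, and 75.0, 109.6, 91.2 and 87.7 with both. Its 4 log2 changes lay between −0.03 and −0.0069, and that in lipid against untreated hepatocytes was −0.01 (95% CI −0.18 to 0.15), or 0.04 with upper-quartile scaling. For both genes the groups overlapped in all 4 comparisons.

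*Baat* (ENSMUSG00000039653.9, minus strand of chr4:49489422-49506557) had 12.5, 10.1, 8.69 and 9.10 CPM in untreated libraries and 14.0, 11.1, 9.19 and 9.71 with itaconate. It had 11.8, 8.35, 6.97 and 7.70 with lipid and 10.8, 12.1, 4.50 and 7.72 with both. The groups overlapped in every comparison, and the lowest value was that of lipid + itaconate C. *Baat* was lower in lipid + itaconate than in itaconate hepatocytes in 3 of 4 letters (log2 −0.36, SE 0.142, adjusted p = 0.0490). This call was lost in 15 of 24 alternative settings, and without lipid + itaconate C the change was −0.18 (adjusted p = 0.166). In lipid against untreated hepatocytes the log2 change was −0.23 (95% CI −0.54 to 0.08, adjusted p = 0.202), negative in 4 of 4 letters.

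Of the transporters, both bile acid carriers were lower in lipid + itaconate than in itaconate hepatocytes. *Slc10a1* (ENSMUSG00000021135.8, minus strand of chr12:80953183-80968705) had 55.4, 48.2, 38.0 and 40.3 CPM with itaconate and 42.8, 44.0, 22.5 and 31.7 CPM with lipid + itaconate. It was lower in 4 of 4 letters, although the groups overlapped, with a log2 change of −0.39 (SE 0.0917, adjusted p = 0.00296; 0.132 without the letters in the model). Untreated libraries had 49.8, 39.4, 29.9 and 36.7 CPM and lipid libraries 39.1, 36.1, 31.7 and 36.1 CPM, a log2 change of −0.10 (95% CI −0.30 to 0.10, adjusted p = 0.383). With itaconate alone the gene was higher than untreated in 4 of 4 letters (log2 0.23, SE 0.0916, unadjusted p = 0.0239, adjusted p = 0.161). The difference between its lipid effects was −0.28 (95% CI −0.56 to −0.0067, unadjusted p = 0.0455, adjusted p = 0.566). In lipid + itaconate against lipid hepatocytes its log2 change was −0.05 (95% CI −0.25 to 0.14, adjusted p = 0.809).

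*Abcb11* (ENSMUSG00000027048.15, minus strand of chr2:69238282-69342616) had 86.8, 83.3, 85.0 and 90.4 CPM with itaconate and 78.0, 76.2, 58.7 and 73.8 CPM with lipid + itaconate. All lipid + itaconate libraries were below all itaconate libraries, as for 14.8% of all genes (lower, no overlap). The log2 change was −0.27 (SE 0.0832, adjusted p = 0.0147). Without lipid + itaconate C it was −0.17 (adjusted p = 0.0512) and without lipid + itaconate D −0.25 (adjusted p = 0.0504). Untreated libraries had 73.7, 71.3, 74.9 and 78.6 CPM, all below every itaconate library (3.67% of all genes were higher with no overlap), with a log2 change of 0.21 (SE 0.0834, unadjusted p = 0.0223, adjusted p = 0.155). Lipid libraries had 57.5, 68.3, 74.6 and 78.0 CPM and overlapped with untreated ones (log2 −0.10, 95% CI −0.28 to 0.08, adjusted p = 0.336). The difference between the lipid effects on *Abcb11* was −0.17 (95% CI −0.42 to 0.08, adjusted p = 0.738). In lipid + itaconate against lipid hepatocytes the log2 change was 0.04 (95% CI −0.13 to 0.22, adjusted p = 0.837).

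*Abcb4* (ENSMUSG00000042476.12, plus strand of chr5:8893717-8959231), the phospholipid transporter, had 82.3, 68.8, 85.0 and 84.4 CPM untreated and 100.3, 86.6, 86.0 and 88.7 CPM with lipid. The lipid libraries were all above the untreated ones, as for 16.6% of all genes (higher, no overlap). The log2 change was 0.17 (95% CI 0.02 to 0.33, unadjusted p = 0.0336, adjusted p = 0.0666). Its adjusted p was under 0.05 in 6 of 24 alternative settings. Itaconate libraries had 93.8, 79.0, 92.9 and 98.0 CPM (log2 0.18 against untreated, adjusted p = 0.169), higher in 4 of 4 letters. With both treatments it had 108.8, 97.1, 85.0 and 85.4 CPM, which overlapped with itaconate alone (log2 0.05, 95% CI −0.11 to 0.21) and with lipid alone (log2 0.06, 95% CI −0.10 to 0.21).

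Of the regulators, *Nr1h4* (ENSMUSG00000047638.15, minus strand of chr10:89454234-89533585) had 12.8, 8.03, 8.07 and 12.3 CPM untreated and 12.7, 8.20, 7.74 and 9.28 CPM with lipid (log2 −0.12, 95% CI −0.34 to 0.10, adjusted p = 0.366). It had 13.1, 10.1, 10.1 and 13.2 CPM with itaconate and 11.0, 8.82, 6.06 and 9.37 CPM with both. The FXR gene was thus lower with lipid + itaconate than with itaconate in 4 of 4 letters, with overlap in range, and the log2 change was −0.41 (SE 0.102, adjusted p = 0.00401; 0.137 without the letters in the model). The difference between its lipid effects was −0.29 (95% CI −0.60 to 0.02, adjusted p = 0.594).

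*Nr0b2* (ENSMUSG00000037583.2, plus strand of chr4:133553376-133556536), the FXR target that represses synthesis, rested on 21 to 59 counts per library. It had 1.31, 0.842, 1.21 and 1.18 CPM untreated, 1.78, 0.776, 1.02 and 1.44 with itaconate, 1.42, 1.84, 1.34 and 1.25 with lipid, and 1.68, 2.16, 1.02 and 1.84 with both. The groups overlapped throughout. The log2 change was 0.37 (95% CI −0.21 to 0.94, adjusted p = 0.277) in lipid against untreated and 0.40 (95% CI −0.15 to 0.95, adjusted p = 0.214) in lipid + itaconate against itaconate hepatocytes, and letter B gave the largest rise in each (1.12 and 1.45 in CPM).

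**Figure D4:**
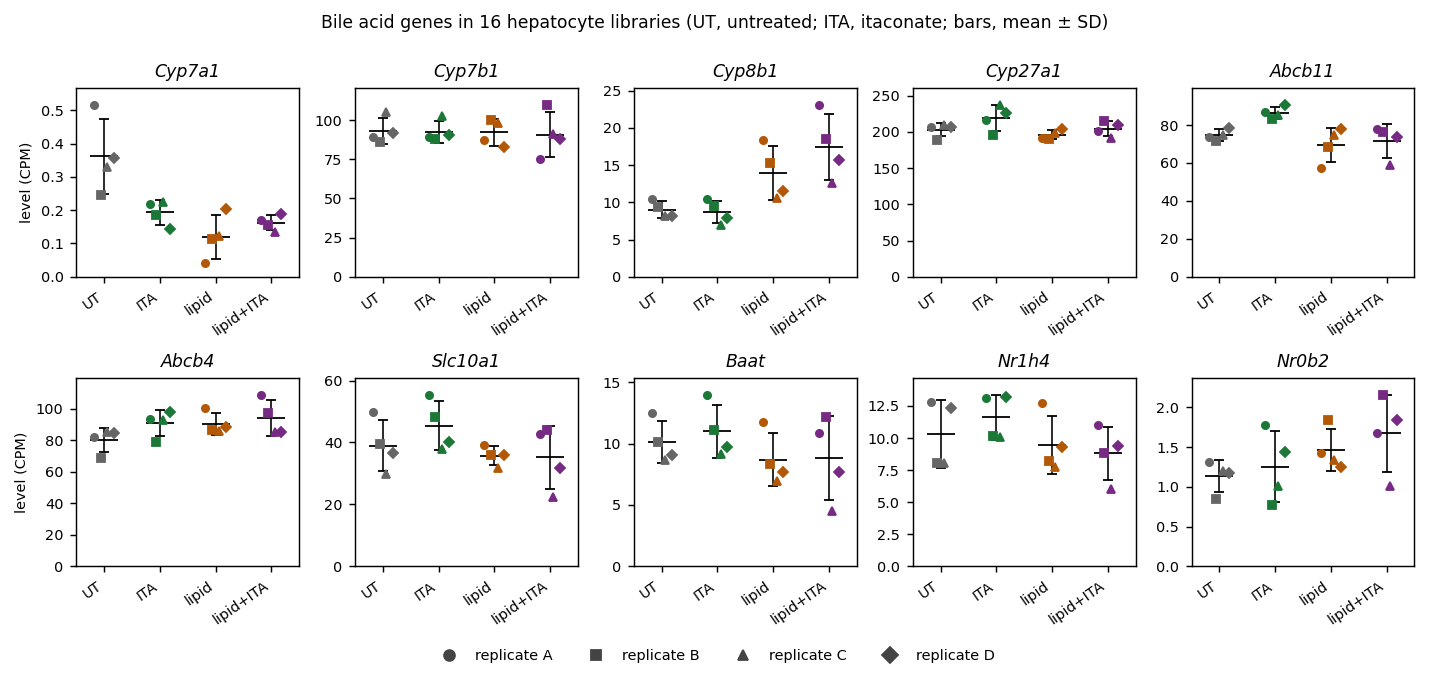
Level of each of the 10 genes in CPM (y axes, from 0) in the 16 libraries, with a marker shape for each replicate letter and the mean ± SD of the group in black (UT, untreated; ITA, itaconate). *Cyp8b1* is the gene with all lipid libraries above all libraries without lipid, and lipid + itaconate C is the lowest library for *Slc10a1*, *Baat* and *Nr1h4*.

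The counts for other gene lists below stand beside 47.5% of all genes called in lipid against untreated hepatocytes (23.8% higher, 23.7% lower) and 47.0% in lipid + itaconate against itaconate hepatocytes (23.5% higher, 23.5% lower). In itaconate against untreated hepatocytes 4.91% of all genes were called, and in lipid + itaconate against lipid hepatocytes 2.58%. In lists this short, few or no calls in the itaconate comparisons are near those shares. Of 12 other synthesis enzymes tested, 4 were lower and 1 higher in lipid against untreated hepatocytes (median log2 −0.13), and 6 lower and 0 higher in lipid + itaconate against itaconate hepatocytes (median −0.16), so that the remaining 7 and 6 were not called. *Acox2*, the peroxisomal oxidase that shortens the side chain, fell from 69.2 ± 4.03 to 36.7 ± 1.59 CPM (log2 −0.92, SE 0.0532, adjusted p = 8.59e-09), and its change was −0.74 with itaconate present. *Akr1d1*, the reductase of the steroid ring, changed by −0.53 and −0.48. *Slc27a2*, an acyl-CoA synthetase, changed by −0.37 and −0.48, and *Slc27a5*, which activates bile acids for conjugation, by −0.18 and −0.17. *Hsd3b7*, an enzyme of the steroid ring and the 1 higher gene (log2 0.15), was named after its value was seen. None of the 12 was called in either itaconate comparison by edgeR.

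Of 12 other bile acid and canalicular transporters tested, 8 were lower and 1 higher in each lipid comparison (median log2 −0.37 and −0.39). *Slc10a2*, the apical bile acid carrier of cholangiocytes and ileum, fell from 24.8 ± 4.67 to 13.1 ± 3.02 CPM with lipid (log2 −0.93, adjusted p = 8.76e-05). The canalicular exporters *Abcc2* and *Abcg2* had log2 changes of −0.37 and −0.40, and −0.42 and −0.39 with itaconate present. *Slco1b2*, a basolateral carrier of organic anions, changed by −0.62 in lipid + itaconate against itaconate hepatocytes. In lipid against untreated hepatocytes it changed by −0.37 (adjusted p = 0.0408). The exception was *Abcc3*, a basolateral exporter, which rose from 354 ± 23.4 to 467 ± 16.1 CPM (log2 0.40, adjusted p = 8.59e-07). None of the 12 was called in either itaconate comparison.

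Of 15 regulators tested, 4 were higher and 4 lower in lipid against untreated hepatocytes, and 6 higher and 5 lower in lipid + itaconate against itaconate hepatocytes. The first count is near the share of all genes called there (47.5%). *Nr1i2*, the xenobiotic receptor PXR, rose from 10.2 ± 1.03 to 15.0 ± 1.45 CPM (log2 0.55, adjusted p = 9.57e-05), and *Prox1* and *Cebpa*, hepatocyte transcription factors, changed by 0.53 and 0.39. *Nr5a2*, an activator of bile acid synthesis genes, fell from 24.9 ± 2.68 to 18.7 ± 3.46 CPM (log2 −0.42, adjusted p = 0.0110). *Nr5a2* was not called in lipid + itaconate against itaconate hepatocytes (log2 −0.13, adjusted p = 0.392). In lipid + itaconate against itaconate hepatocytes *Fgfr4*, the receptor for the intestinal signal FGF15, changed by −0.58, *Mafg* by −0.41 and *Nr1i3* by −0.40, and *Prox1* by 0.91. *Fgfr4* (−0.39) and *Mafg* (−0.31) were also called lower in lipid against untreated hepatocytes, and *Nr1i3* (−0.07) was not called there. *Fgf15* and the bile acid receptor gene *Gpbar1* were at 0 in all libraries. The 1 regulator called with itaconate alone was the coactivator *Ppargc1a* (log2 0.69, adjusted p = 0.0121), named after its value was seen.

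Of 8 other FXR targets tested, 4 were lower and 1 higher in each lipid comparison, where 23.7% and 23.5% of all genes were lower. The higher gene was *Sdc1*, a cell-surface proteoglycan (log2 0.42 and 0.37), and the lower ones included *Abcc2*, *Mafg* and *Slc27a5*, which other lists hold as well. *Osgin1* was the 1 target called with itaconate, at 561 ± 31.0 CPM untreated and 653 ± 28.8 CPM with itaconate (log2 0.22, adjusted p = 0.0156), and its log2 change in lipid + itaconate against lipid hepatocytes was 0.19 (adjusted p = 0.0452).

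**Figure D5:**
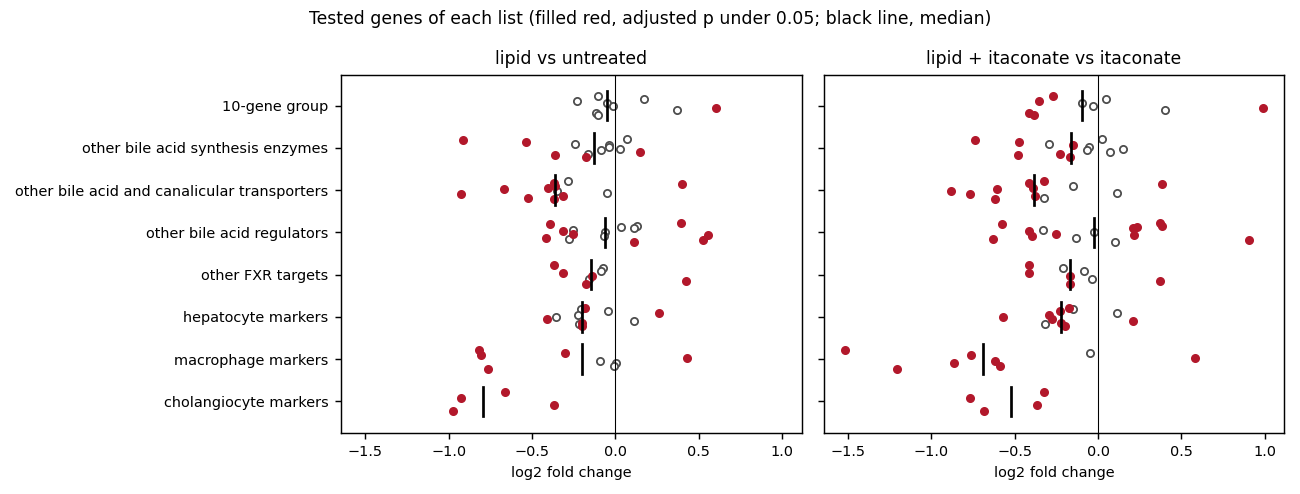
Log2 fold change (x axis) of each tested gene of the gene lists (y axis) in both lipid comparisons, with called genes in filled red and the median of each list as a black line. The medians of the other transporters lie at −0.37 and −0.39, and 4 of 4 tested cholangiocyte-list genes are below 0.

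Over the 16 libraries the profile of *Cyp8b1* was most like those of *Acad12*, an acyl-CoA dehydrogenase family gene (root mean square difference 0.172 in log2 CPM, centred on each gene's mean), *Thnsl1* (0.213) and *Gm19619* (0.217), among 9645 genes compared. *Acad12* changed by 0.69 and 0.91 in the lipid comparisons and by 0.06 in lipid + itaconate against lipid hepatocytes. The nearest profiles to *Nr0b2* were those of *Cyp4f15* (0.259), *Sorbs3* (0.262) and *Pou6f1* (0.280), against a spread of 0.400 for *Nr0b2* itself. This likeness was chosen on the same libraries and carries no test.

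Markers of cell types are given for the same comparisons, in which 47.5% and 47.0% of all genes were called. Of 11 hepatocyte markers tested, 4 were lower and 1 higher in lipid against untreated hepatocytes and 7 lower and 1 higher in lipid + itaconate against itaconate hepatocytes (median log2 −0.20 and −0.22). Their summed level was 45601 to 61843 CPM untreated, 39468 to 52116 with lipid, 45621 to 62246 with itaconate and 35729 to 57260 with both. Of 8 macrophage markers 4 were lower and 1 higher in the first comparison and 6 lower and 1 higher in the second, with *Marco* at −0.76 and −1.20 and *Cd68* at 0.43 and 0.58. Their summed levels, mostly *Cd68* and *Cd14*, overlapped between all groups. The median log2 change over the 8 markers was −0.20 in the first comparison and −0.69 in the second, so the sum does not describe the other markers. All 4 cholangiocyte-list genes tested were lower in both, *Spp1* by the most in the first (log2 −0.97), and the summed level was 642 to 1210 CPM untreated and 357 to 637 CPM with lipid. One such gene, *Slc10a2*, is also on the transporter list. Of 6 endothelial markers, 1 was higher and 1 lower in the first comparison and 1 lower in the second. The part of these marker changes in the changes of *Slc10a1*, *Abcb11*, *Baat* and *Nr1h4* was not tested.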

How the data were processed

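Poly(A) RNA of 16 hepatocyte cultures was sequenced with a stranded ligation kit, from RNA of high integrity by the labels. Per the labels, base calls were made with bcl2fastq 2.20 and reads were trimmed with Cutadapt 1.18, aligned to mm10 with STAR 2.7.0f, checked with Picard 2.18.26 and quantified with RSEM 1.3.1. The values the authors deposited are expected counts per gene without normalization, in which a read that fits several genes is shared among them, and 5.41% of them were not whole. The authors' own filter, batch removal and differential tests followed these values and were not used.

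Expected counts were rounded, and edgeR 4.0.16 in R 4.3.3 was applied to them (TMM scaling, quasi-likelihood test, Benjamini-Hochberg adjustment over the 11675 genes that averaged 1 CPM or more, threshold 0.05). *Cyp7a1*, under the filter, came from the same model without one. The model held treatment and replicate letter. Letters come from the labels. They were taken to pair the libraries because deviations from the group means correlated in all 24 same-letter pairs (0.143 to 0.468, median 0.263). In 72 other pairs the correlations were −0.435 to 0.178, with a median of −0.114. Deviations from a group mean cancel out within the group, so this negative median is no separate support for pairing. Totals were 22346049 to 35512004 expected counts per library, so that 3 counts correspond to 0.0854 to 0.141 CPM. SE and 95% intervals are those of the fitted coefficients, log2 CPM used a prior count of 0.5, and the count ratios of *Cyp7a1* have exact intervals for counting error. The test was checked on simulated counts that held no differences between letters, so calls that depend on the letters were not checked by it. Positions and exon lengths are those of GENCODE on GRCm38, in which all 55450 identifiers were found.

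The genes, the other gene lists and the alternatives were chosen with earlier results of these data known. Every one of the 10 genes is described. Of each other list at most 4 genes per comparison were chosen, those with the largest change among called genes averaging 5 CPM or more. Not every chosen gene is named, and some values are given for genes chosen in another comparison. *Hsd3b7*, *Ppargc1a* and some genes of very low level were named outside this rule. Profiles were compared, among genes at that level, for the 2 tested genes with the largest change in lipid against untreated hepatocytes. Alternatives were a model without letters, RLE and upper-quartile scaling, edgeR's filterByExpr or no filter, DESeq2 1.42.0, limma-trend (limma 3.58.1), only the 8 libraries of a comparison, and each library left out in turn.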

Additional observations from a re-analysis of the deposited data

Results flagged for a closer look

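In 2 of the groups of 4 libraries a single library lay far from the other 3 (Dixon's test at the 95% level, which flags about 1 in 20 groups by chance). *Cyp7b1* was at 103 CPM in itaconate replicate C, against 88.1 to 90.3 CPM in the others. *Abcb4* was at 68.8 CPM in untreated replicate B, against 82.3 to 85.0 CPM in the others, and without this library its log2 change in lipid against untreated hepatocytes was 0.12 (adjusted p = 0.224).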

How the results depend on the processing

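Over 24 alternative settings, 1087 of 1189 values for the 10 genes kept their direction and their side of the threshold, 38 lost a call, 17 gained one and 47 changed sign, none of these last from a called value. The lipid effects on *Cyp8b1* were called in all 24 (log2 0.55 to 0.68, adjusted p up to 0.0182, and 0.94 to 1.06, adjusted p up to 0.000893). Without the replicate block that pairs the letters, the count of called genes was 2 instead of 5 in lipid + itaconate against itaconate hepatocytes (*Slc10a1*, *Nr1h4* and *Baat* were lost) and 0 instead of 1 in lipid + itaconate against lipid hepatocytes, and it changed no other count. That last count was also 0 with upper-quartile scaling, filterByExpr, limma-trend and only the 8 libraries, and 0 to 1 when single libraries were left out (1 without untreated C or lipid + itaconate C). The count in lipid against untreated hepatocytes was 2 with upper-quartile scaling, no filter or only the 8 libraries, and 1 to 2 with single libraries left out (2 without untreated C, lipid + itaconate B or lipid + itaconate C), *Abcb4* being the gene added. In lipid + itaconate against itaconate hepatocytes it was 3 to 6 with single libraries left out (3 without lipid + itaconate C or D). With itaconate alone it was 3 without a filter, 4 with only the 8 libraries, and 0 to 1 with single libraries left out (1 without lipid + itaconate C, *Abcb11*). Over all genes tested, the background count with itaconate alone was 573, but 23 without the replicate block, 1091 without a filter, 1859 with only the 8 libraries and 149 to 1051 with single libraries left out. In lipid + itaconate against lipid hepatocytes it was 301, but 9, 725, 14 and 59 to 891 in the same order, and 512 by DESeq2. For the interaction it was 1, but 231 without a filter and 36 by DESeq2. The causes were not tested. For *Cyp7a1* the adjusted p in lipid against untreated hepatocytes ranged from 0.0463 to 0.368.

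No value that changed sign was called. With upper-quartile scaling, which moved the median of all genes by 0.06 to 0.07 in the lipid comparisons, *Cyp7b1* was at 0.044 and 0.033 and *Cyp27a1* at 0.0068. *Cyp7b1* with itaconate alone was at 0.0022 without a filter, and *Baat* in lipid + itaconate against lipid hepatocytes at 0.018 without the replicate block. Leaving out single libraries gave, in lipid + itaconate against lipid hepatocytes, −0.055 to 0.14 for *Abcb11*, −0.016 to 0.12 for *Abcb4*, −0.21 to 0.16 for *Baat*, −0.0013 to 0.11 for *Cyp27a1*, −0.13 to 0.038 for *Cyp7b1*, −0.043 to 0.35 for *Nr0b2* and −0.17 to 0.049 for *Slc10a1*. With itaconate alone it gave −0.079 to 0.053 for *Cyp7b1*, −0.12 to 0.013 for *Cyp8b1* and −0.034 to 0.36 for *Nr0b2*. In the lipid comparisons it gave −0.089 to 0.025 and −0.14 to 0.031 for *Cyp7b1* and −0.024 to 0.11 for *Abcb4* with itaconate present. For the interaction it gave −0.33 to 0.041 for *Baat*, −0.11 to 0.0036 for *Cyp27a1*, −0.13 to 0.052 for *Cyp7b1* and −0.19 to 0.22 for *Nr0b2*. Depth limits *Cyp7a1* (at most 11 counts) and *Nr0b2* (at most 59).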
